A study of Homo sapiens with 7 samples.

Results

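The genes of one signalling chain, EGFR, ERBB2, NRAS, HRAS, BRAF, ARAF and PIK3CA, were followed through the gene expression process of HCT116, an established human colorectal carcinoma line. They were taken by symbol, 7 of the 20072 symbols listed, and all 7 passed the filter of a mean of at least 1 RPKM (reads per unit of exon length and library size) in at least 1 assay that left 14305 genes for testing. The parent study measured 3 parameters genome-wide in log phase cells, kept in serum-free medium with EGF, insulin and transferrin. Transcription rate (TR) was read by GRO-seq, in which nuclei run on and label nascent RNA, in 2 libraries. mRNA abundance (RA) was read by RNA-seq in 3 libraries, and translation activity (TA) by sequencing the mRNA of isolated polysomes from cycloheximide-treated cells in 2 libraries. There is no second genotype. Cycloheximide is named for the TA cells alone, and its effect cannot be told apart from that of the polysome step in any comparison with TA. The comparisons are between the parameters: RA against TR, on which the study bases its stability index, and TA against RA, its translation index.

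EGFR and ERBB2 are receptor tyrosine kinases of the ERBB family, which sit in the plasma membrane, bind EGF-like ligands or pair with each other, and recruit adaptors to their phosphorylated tails. NRAS and HRAS are small GTPases that pass the signal on while bound to GTP, and BRAF and ARAF are kinases which active RAS brings to the membrane, where they start the MAP kinase cascade. PIK3CA encodes the p110-alpha catalytic subunit of phosphoinositide 3-kinase (PI3K), which receptors and RAS both engage and which feeds AKT and mTOR. The chain drives growth of the intestinal epithelium and is a common site of activation in colorectal cancer.

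On hg19, the build of the submitters' alignments, the receptor genes lie at chr7:55086710-55279321 (EGFR) and chr17:37844167-37886679 (ERBB2), both on the plus strand. NRAS is at chr1:115247090-115259392 and HRAS at chr11:532242-537321, both on the minus strand. BRAF is on the minus strand at chr7:140419127-140624729, ARAF on the plus strand at chrX:47420604-47431307 and PIK3CA on the plus strand at chr3:178865902-178957881.

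The cells carried the epithelial identity on the label. Of 8 epithelial markers, 7 were at 1 RPKM or more in every RA library, and CDH17 was not. Of 9 markers of blood, endothelial and fibroblast cells, 2 (CD68 and COL1A1) reached that level in every RA library. The summed level was 2103 to 2824 RPKM for the epithelial list and 22.3 to 47.3 RPKM for the other list, and COL1A2 was listed at 0. Library sizes recovered from the RPKM steps were 3391897 and 5629982 reads in TR, 20299018 to 22532134 in RA, and 30805391 and 22421062 in TA, so that TR values rest on the fewest reads. The member reads ranged from 66 (PIK3CA in TR replicate 1) to 8134 (EGFR in RA replicate 3).

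The order of the genes differed between the parameters. In TR the mean level per exon length ran from EGFR (36.1 ± 7.32 RPKM, SD, n = 2) and ERBB2 (33.6 ± 0.660) through HRAS (27.2 ± 3.81), NRAS (19.3 ± 2.46), ARAF (12.9 ± 0.344) and BRAF (10.8 ± 1.42) to PIK3CA (5.66 ± 0.591). Only EGFR and ERBB2 overlapped as neighbours in that order. In RA the order was HRAS (41.6 ± 6.50 RPKM, n = 3), EGFR (41.4 ± 17.7), NRAS (31.3 ± 0.650), ERBB2 (23.0 ± 1.84), PIK3CA (6.84 ± 0.873), BRAF (5.68 ± 1.36) and ARAF (4.74 ± 1.36). HRAS, EGFR and NRAS overlapped in turn there, as did PIK3CA, BRAF and ARAF, while NRAS and ERBB2, and ERBB2 and PIK3CA, stayed apart. In TA, EGFR (33.7 ± 2.09 RPKM, n = 2) stood above ERBB2 (19.5 ± 0.184), HRAS (17.7 ± 5.03), NRAS (11.5 ± 2.43), PIK3CA (2.80 ± 0.788), BRAF (2.65 ± 0.0861) and ARAF (1.23 ± 0.299). The overlapping neighbours in TA were ERBB2 with HRAS and PIK3CA with BRAF.

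**Figure D1:**
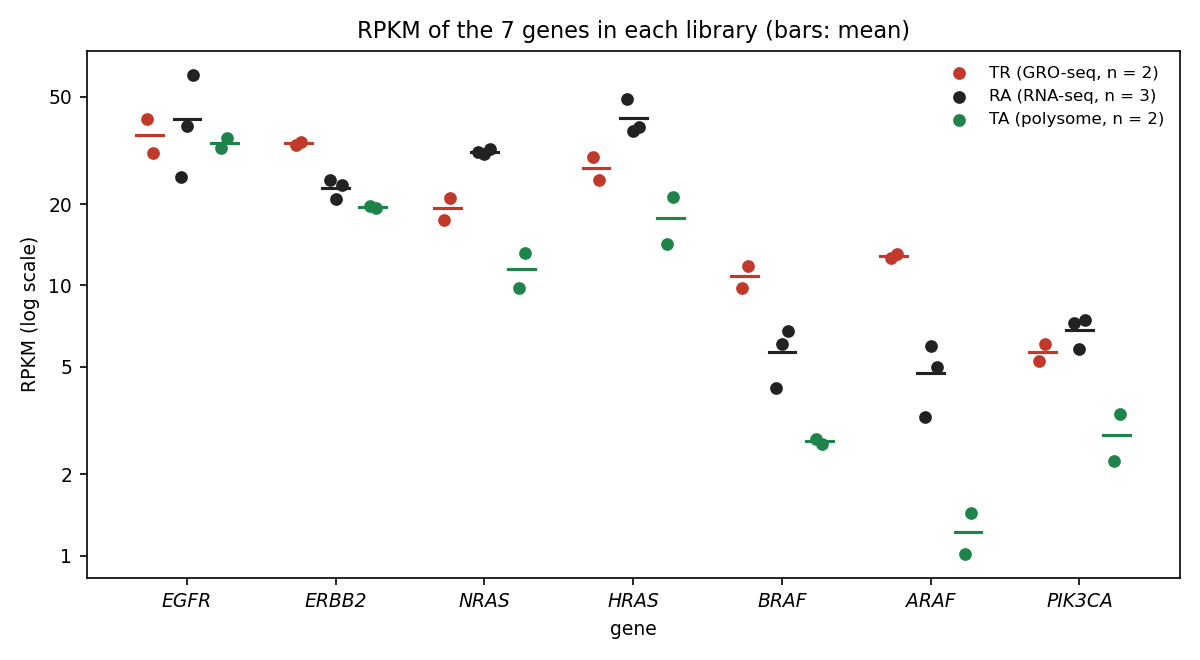
RPKM, on a log axis, of the 7 genes in each of the 7 libraries; points are libraries and bars are means over 2 TR, 3 RA and 2 TA libraries. The TA points of NRAS, HRAS, BRAF, ARAF and PIK3CA lie below all their RA points, and the TA points of EGFR lie within its RA range of 25.1 to 60.2 RPKM.

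The distance between the members was wider in TA than in TR, as it was over all genes. The highest mean over the lowest was 6.37 in TR, 8.77 in RA and 27.5 in TA. Within single libraries, where no scaling between libraries enters, the SD of log2 RPKM over the 7 genes was 0.89 and 1.07 in the TR libraries, 1.31 to 1.55 in RA, and 1.78 and 1.85 in TA. The same SD was also taken over the 14305 genes tested, on log2(RPKM + 0.1). It was 1.60 and 1.61 in TR, 2.74 to 2.77 in RA, and 2.98 and 2.99 in TA. The spread over all genes thus widened too, mostly between TR and RA. It includes genes that passed the filter in TR alone. Whether the members widened more than other genes from RA to TA was not tested. The mean log2 level of the receptors EGFR and ERBB2 exceeded that of the other 5 genes by 1.24 and 1.53 in TR, by 1.19 to 1.59 in RA, and by 2.35 and 2.71 in TA. As ratios of geometric means, the receptors were 2.37 and 2.89 times the others in TR, 2.28 to 3.01 times in RA, and 5.10 and 6.52 times in TA. This grouping follows the roles of the genes but was made after their values were seen, so it is given with no test.

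The order of genes within 1 library does not depend on its scaling, but the means over libraries used here and the filter that chose the 14305 genes do. Genes that passed the filter in TR alone are ranked in RA and TA too. A place is therefore not equivalent between parameters: 5.66 RPKM was at 20.9% in TR (PIK3CA) and 5.68 RPKM at 39.4% in RA (BRAF). By mean level per exon length, in TR EGFR exceeded 84.1% of the genes, in RA 86.2% and in TA 83.2%. ERBB2 was above 82.0%, 74.1% and 73.6% in the same order. NRAS was at 62.8% in TR, at 81.1% in RA and at 62.3% in TA, and HRAS took a like course with 75.4%, 86.3% and 71.8%. PIK3CA moved from 20.9% in TR to 43.5% in RA and 34.9% in TA, so that its place in TA was above that in TR although its RPKM was lower. BRAF was at 39.4% in both TR and RA and at 34.2% in TA, while ARAF stepped down from 46.1% to 36.0% and 25.5%. These places carry no error of their own and are given as a description.

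At the polysome step both receptors lay close to the typical gene. EGFR, the receptor for EGF, which was present in the medium, was at 41.3 and 30.9 RPKM in the TR libraries, at 25.1, 38.9 and 60.2 in RA, and at 32.3 and 35.2 in TA. All 3 ranges overlap, and the RA replicates spread by 2.40 times, wider than 93.2% of 9016 genes with a mean RA of at least 5 RPKM. On the scale of log2(RPKM + 0.1), RA minus TR was 0.12 (SE 0.34, adjusted p = 0.764) and TA minus RA was −0.21 (SE 0.34, adjusted p = 0.663) in limma with Benjamini-Hochberg adjustment. The 95% intervals ran from −0.66 to 0.90 and from −0.98 to 0.57, so differences of nearly 1 log2 unit were not excluded at this spread. Without RA replicate 3 the signs turned, to −0.19 and 0.11, and without TR replicate 2 RA minus TR was −0.09. With all libraries, RA minus TR was 0.70 and TA minus RA 0.17 relative to the medians of all genes tested.

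ERBB2, the family member that pairs with the others without a known ligand of its own, was much tighter. Its level was 33.1 and 34.0 RPKM in TR, 24.5, 21.0 and 23.6 in RA, and 19.6 and 19.4 in TA, and the 3 ranges did not overlap. RA was lower than TR by 1.46 times (log2 difference −0.54, SE 0.15, adjusted p = 0.0131). TA minus RA was −0.23 (SE 0.15, 95% interval −0.59 to 0.12, adjusted p = 0.261) and did not pass. The RA deficit was that of the typical gene, 0.03 above the all-gene median, and TA minus RA was 0.14 above the median of that step. With every library centred on its own median, RA minus TR turned positive, at 0.13, and did not pass in limma (adjusted p = 0.484).

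At the RA step the members moved in both directions, as all genes tested did, and the counts of calls were near the general shares. RA was higher than TR for 2 of the 7 (19.2% of the 14305 genes tested) and lower for 3 (48%), and 2 did not pass. With every library centred on its own median the members were 3 higher (NRAS, HRAS and PIK3CA) and 1 lower (ARAF). The median of RA minus TR over all genes was −0.58, that of TA minus RA −0.37 and that of TA minus TR −1.08. RPKM are shares of a library, so less of an mRNA per cell and more of all others cannot be told apart. When each library was centred on its median, the calls over all genes were 5066 higher and 4814 lower for RA against TR, in place of 2743 and 6870. They were 2713 higher and 1404 lower for TA against RA, in place of 953 and 4173. Differences from the all-gene median are therefore given beside the plain ones for each member at the RA and TA steps.

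The RAS genes gained at the RA step and lost at the TA step. NRAS was at 17.5 and 21.0 RPKM in TR, at 31.3, 30.6 and 31.9 in RA, and at 9.77 and 13.2 in TA. Every RA library was above every TR library, and every TA library below both. RA exceeded TR by 1.63 times (log2 difference 0.70, SE 0.18, adjusted p = 0.010), which was 1.28 above the all-gene median. TA was lower than RA by 2.74 times (log2 difference −1.45, SE 0.18, adjusted p = 0.00312), or −1.08 relative to that median, and only 6.6% of genes had a lower value. The RA gain missed the threshold without TR replicate 1 (adjusted p = 0.0723, with a range over 13 alternatives of 0.000191 to 0.0723), and the TA loss passed under all 13.

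HRAS, with the shortest mRNA of the 7 genes, moved the same way. Its level was 29.9 and 24.5 RPKM in TR, 49.1, 37.3 and 38.4 in RA, and 14.2 and 21.3 in TA, with no overlap between the parameters. RA exceeded TR by 1.52 times (log2 difference 0.61, SE 0.23, adjusted p = 0.0436). TA was lower than RA by 2.37 times (log2 difference −1.24, SE 0.23, adjusted p = 0.00664). Relative to the all-gene medians these were 1.19 and −0.87. The gain in RA is close to the threshold: it was lost without TR replicate 1, TR replicate 2, RA replicate 1 or RA replicate 3, and adjusted p ranged from 0.000865 to 0.249 over 13 alternatives, 6 of which passed. The log2 ratio of NRAS to HRAS within a library was −0.77 and −0.22 in TR, −0.65, −0.28 and −0.27 in RA, and −0.54 and −0.69 in TA. NRAS was thus below HRAS per exon length in all 7 libraries, and the ratios of the 3 parameters overlapped.

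The RAF genes fell at both steps, ARAF further than BRAF, but at the RA step the median gene fell too (−0.58). BRAF, the RAF kinase with the highest basal activity, was at 9.81 and 11.8 RPKM in TR, at 4.16, 6.07 and 6.80 in RA, and at 2.71 and 2.59 in TA. Its 3 ranges were apart. RA was lower than TR by 1.92 times (log2 difference −0.94, SE 0.25, adjusted p = 0.0113). TA was lower than RA by 2.06 times (log2 difference −1.04, SE 0.25, adjusted p = 0.0172). Relative to the all-gene medians these were −0.36 and −0.67, and 42.1% of genes had a lower RA minus TR. The RA call was lost without TR replicate 2, and the TA call without RA replicate 3, TA replicate 1 or TA replicate 2, with adjusted p between 0.00733 and 0.149 over its 13 alternatives. Centring the libraries ended both calls, with −0.27 for RA minus TR and −0.54 for TA minus RA.

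ARAF, the X-linked RAF kinase, was at 12.6 and 13.1 RPKM in TR, at 3.27, 5.97 and 4.97 in RA, and at 1.02 and 1.44 in TA. It had more nascent RNA than BRAF in both TR libraries and less polysomal mRNA in both TA libraries. RA was lower than TR by 2.76 times (log2 difference −1.46, SE 0.30, adjusted p = 0.00259). That was −0.88 relative to the all-gene median, and 32.3% of genes had a lower value. TA was lower than RA by 3.59 times (log2 difference −1.84, SE 0.30, adjusted p = 0.00447). Relative to the median of that step it was −1.47, and only 2.2% of the genes tested had a lower value. Both calls passed under all 13 alternatives.

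The ratio of BRAF to ARAF showed the same divergence without any scaling between libraries. On the log2 scale it was −0.36 and −0.15 in TR, 0.35, 0.02 and 0.45 in RA, and 1.41 and 0.85 in TA. No library of one parameter overlapped with those of the next. The difference of the means was 0.53 for RA minus TR and 0.86 for TA minus RA. In the exact two-sided permutation test over libraries p was 0.2 for each, the smallest that 2 against 3 libraries allow, and 0.6 after adjustment over the 6 tests of 3 pairs, so no ratio could pass. EGFR to ERBB2 was 0.32 and −0.14 in TR, 0.04, 0.89 and 1.35 in RA, and 0.72 and 0.86 in TA, with overlap at both steps.

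**Figure D2:**
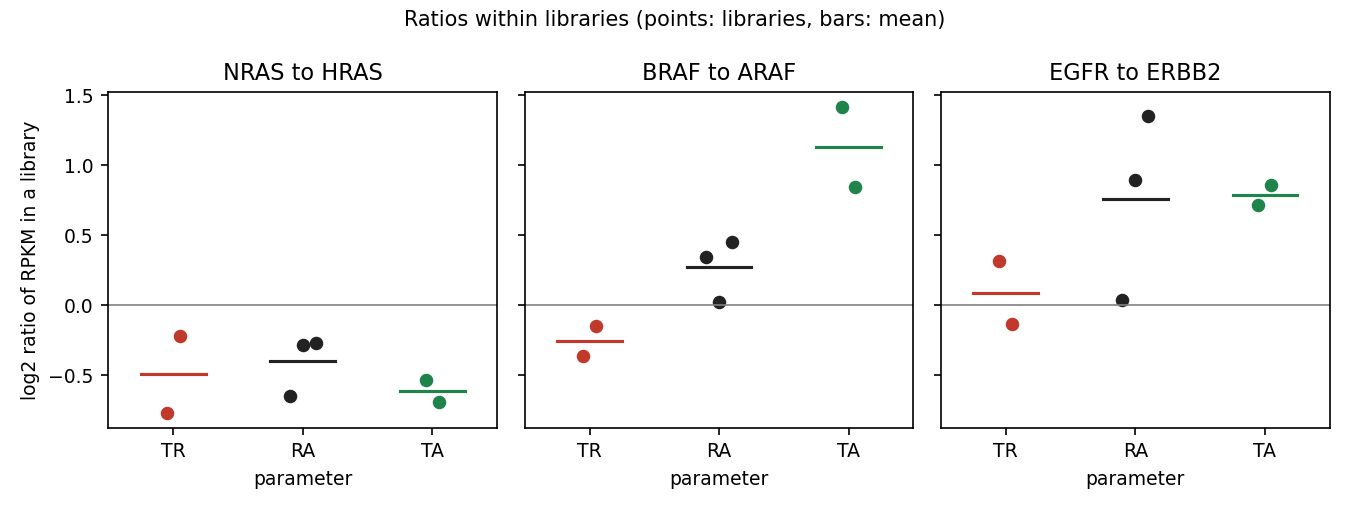
Log2 ratio of the RPKM of 2 related genes within each library, by parameter (2 TR, 3 RA and 2 TA libraries; points are libraries, bars are means). BRAF to ARAF steps from a mean of −0.26 in TR to 0.27 in RA and 1.13 in TA with no overlap, while the other pairs overlap.

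PIK3CA had the lowest TR of the 7 genes, at 5.25 and 6.08 RPKM. It was at 7.25, 5.84 and 7.44 RPKM in RA, which overlaps TR, and at 2.24 and 3.35 in TA, below every other library. RA minus TR was 0.26 (SE 0.25, 95% interval −0.30 to 0.83, adjusted p = 0.368), 0.84 above the all-gene median, and with the libraries centred it was 0.94 and passed (adjusted p = 0.00719, with a range over 13 alternatives up to 0.699). TA was lower than RA by 2.43 times (log2 difference −1.28, SE 0.25, adjusted p = 0.00757), or −0.91 relative to the all-gene median. The call was lost without TA replicate 1 (adjusted p = 0.0556, with a range of 0.00558 to 0.0613). A copy on chromosome 22 with at least 95% identity holds 17.9% of its coding bases, in 4 aligned stretches, and how reads were split between the copies was not tested.

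At the TA step as a whole, 5 of the 7 members were lower than RA, where 29.2% of all genes tested were, and 0 were higher, where 6.66% were. The 2 that did not pass are the receptors. The members' median was −1.24, against −0.37 over all genes, and with centred libraries 4 of the 5 calls were left, without BRAF. Without TA replicate 1 the count was 3. TA against TR uses the same libraries again and is given for completeness. It was lower for 6 of the 7 (57.5% of all genes) and higher for 0 (17% of all genes), from −0.63 for HRAS (adjusted p = 0.0473, with a range of 0.0167 to 0.285 over 13 alternatives, 3 of which passed) to −3.31 for ARAF (adjusted p = 3.4e-05). EGFR was the member not called, at −0.08 (SE 0.37, adjusted p = 0.845). Of the 7 members 5 were above the all-gene median of −1.08, and the count of 6 depends on scaling: with centred libraries 2 were lower (BRAF and ARAF) and 1 higher (EGFR, 1.09), while NRAS (0.42), HRAS (0.54), PIK3CA (0.16) and ERBB2 (0.39) turned positive without passing. Without TR replicate 2, or without TA replicate 1, 3 were lower.

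**Figure D3:**
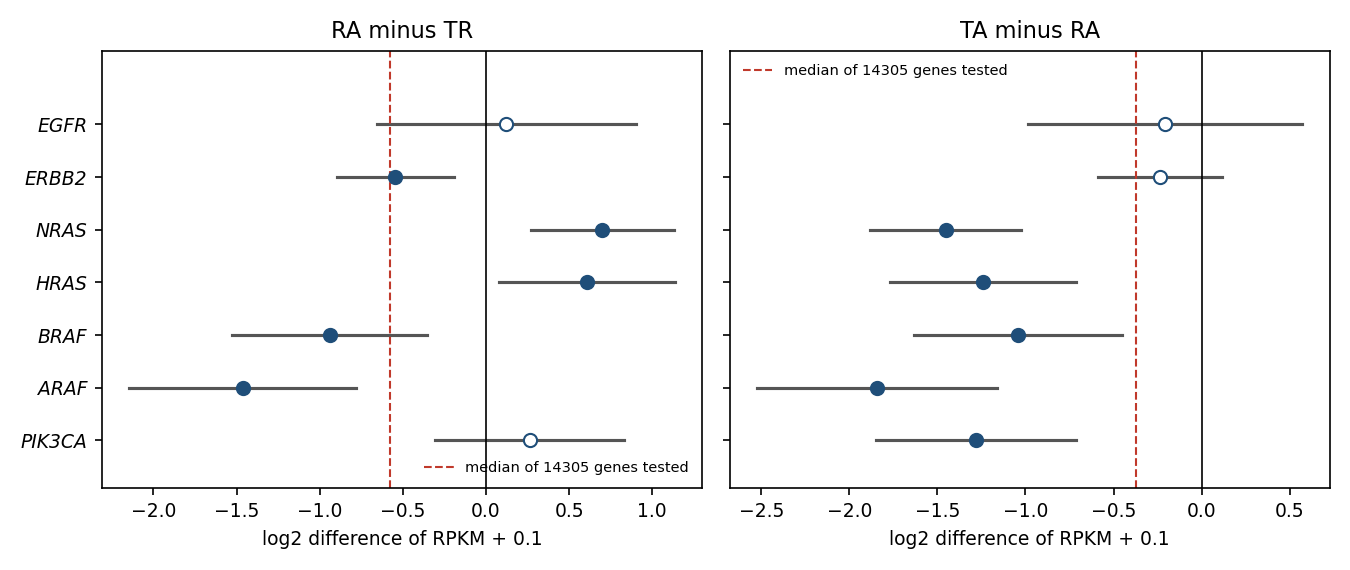
Log2 difference of RPKM + 0.1 for RA minus TR and TA minus RA, with 95% intervals from limma; filled points passed an adjusted p of 0.05, and the dashed line is the median of the 14305 genes tested (−0.58 and −0.37). For TA minus RA, NRAS, HRAS, BRAF, ARAF and PIK3CA lie from −1.04 to −1.84 and the receptors at −0.21 and −0.23.

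Other genes of the pathway were taken by role from a list of 59, all of them measured and 55 of them tested (EGF, NRG1, ERBB4 and PIK3CG were too low). RA was higher than TR for 12 (19.2% of all genes tested) and lower for 14 (48% of all genes), and with centred libraries for 26 and 10. Without TR replicate 2, RA was higher for 7. TA was lower than RA for 30 (29.2% of all genes) and higher for 0 (6.66% of all genes), with a median of −0.82. With centred libraries these TA counts were 9 lower and 3 higher, and without RA replicate 3 or TA replicate 1 there were 19 and 18 lower. Both sets of counts thus depend on scaling.

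By role, TA was lower than RA for 0 of 6 EGF family ligands and 0 of 4 other growth factor receptors. The groups are small, 29.2% of all genes tested were lower, and no difference between roles was tested. EREG, the ligand with the highest RA here, was at 76.8 and 61.1 RPKM in TR, 128.3, 65.6 and 124.9 in RA, and 35.9 and 76.8 in TA, and its TA minus RA of −0.95 did not pass (adjusted p = 0.0929). MET, the receptor for hepatocyte growth factor, had a TA minus RA of −0.26 (SE 0.31, adjusted p = 0.554). ERBB3, the kinase-impaired partner of ERBB2, was lower in RA than in TR (−0.87, SE 0.26, adjusted p = 0.0192) and had a TA minus RA of −0.41 (adjusted p = 0.253). For adaptors, exchange factors and receptor brakes the count was 6 of 10. ERRFI1, an inhibitor of ERBB kinases, was at 344 and 370 RPKM in TR, 503, 673 and 983 in RA, and 279 and 475 in TA, more than any of the 7 members, and none of its differences passed.

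TA was lower than RA for 8 of 11 RAS-related GTPases and RAS brakes, a count to be read, like those of the next roles, against the 29.2% of all genes. RRAS, a close RAS relative, differed from NRAS and HRAS in sign, at 49.0, 65.2 and 72.8 RPKM in RA and 68.3 and 86.4 in TA, with a TA minus RA of 0.32 (SE 0.23, adjusted p = 0.298) that did not pass. Among RAF partners and MAP kinases 3 of 6 were lower. MAP2K2, a kinase directly below RAF, was higher in RA than in TR by 2.32 times (adjusted p = 0.000986) and lower in TA than in RA by 1.58 times (adjusted p = 0.0388). In the PI3K group 7 of 8 were lower. PIK3CB, the p110-beta subunit, was higher in RA than in TR (0.62, SE 0.20, adjusted p = 0.0228) and lower in TA than in RA (−1.24, SE 0.20, adjusted p = 0.00449). PIK3R2, a regulatory subunit, was lower in TA than in RA by 2.27 times (adjusted p = 0.0254), and AKT1, the kinase that reads PI3K's lipid product, by 2.46 times (adjusted p = 0.0207). Of the AKT and mTOR group 6 of 10 were lower.

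**Figure D4:**
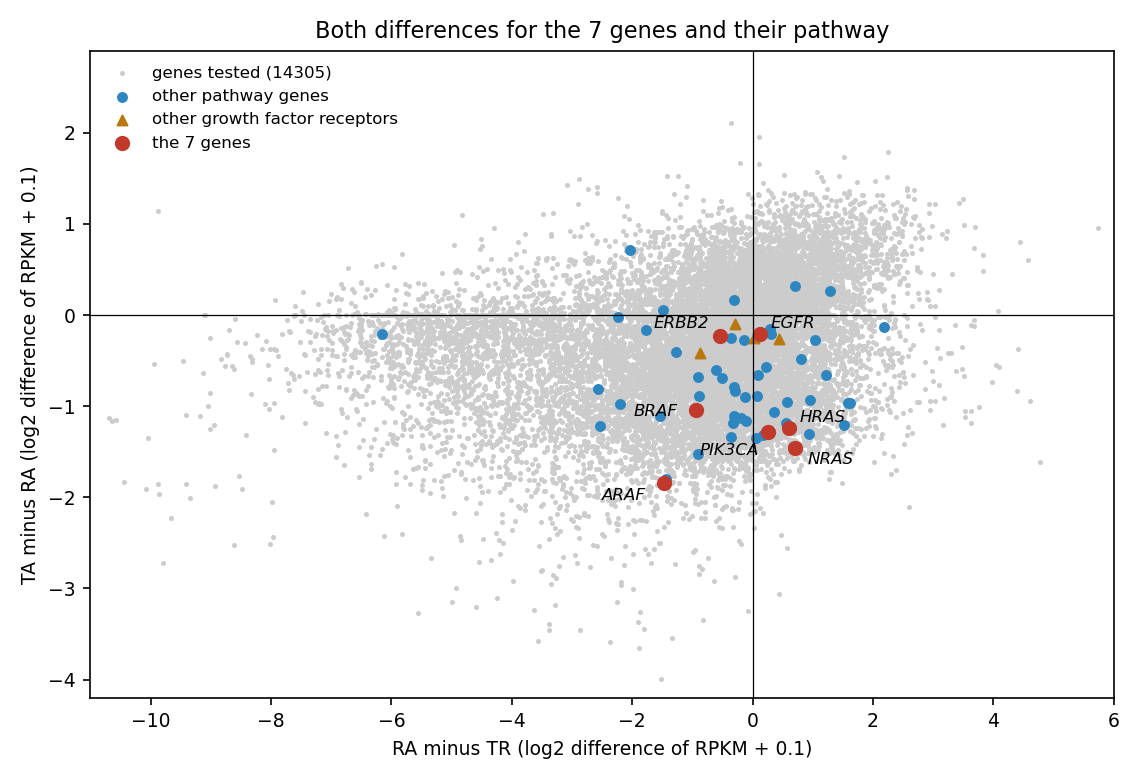
TA minus RA against RA minus TR (log2 difference of RPKM + 0.1) for the 14305 genes tested (grey), the 55 other pathway genes tested (blue, with 4 growth factor receptors as triangles) and the 7 members (red). EGFR and ERBB2 lie at −0.21 and −0.23 on the vertical axis, and the other members between −1.04 and −1.84.

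The genes nearest to each member, by Euclidean distance over log2(RPKM + 0.1) in the 7 libraries, were mostly outside the pathway. EGFR was the exception, with MET as its nearest gene at a distance of 0.52. MET was at 35.6 and 29.5 RPKM in TR, at 30.8, 42.4 and 65.6 in RA, and at 31.2 and 43.6 in TA. Its RA replicates were lowest and highest in the same libraries as those of EGFR. That order is not particular to this pair: BRAF, RRAS, MAP2K2 and ERRFI1 had it too, and the other members did not. For ERBB2 the nearest were FZR1 (0.36) and C1orf122 (0.39), for NRAS BECN1 (0.43) and UROS (0.47), and for HRAS BABAM1 (0.28) and ADRBK1 (0.37). BRAF was nearest to JMY (0.40) and C2orf42 (0.43), ARAF to TARBP1 (0.63) and SLC35F5 (0.66), and PIK3CA to KIAA1143 (0.30) and IL1R1 (0.32). A short distance says only that levels were alike in these libraries.

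The mRNAs differ widely in their untranslated share. In the GENCODE mRNA of each gene, UTRs made up 86.8% of NRAS, 65.4% of PIK3CA, 64.4% of BRAF, 63.3% of EGFR, 46.7% of HRAS, 23.4% of ARAF and 17.3% of ERBB2, against a median of 49.4% over 13096 tested genes. NRAS and HRAS share a coding length of 570 bases, but the 3′ UTR is 3625 bases in NRAS and 286 in HRAS, and the GC content 37.4% and 64.3%. The RAF pair differ likewise, with a 3′ UTR of 3932 bases and a GC content of 41.1% in BRAF against 451 bases and 59.0% in ARAF. The pentamer ATTTA, searched on the mRNA strand of the 3′ UTR, occurs 28 times in PIK3CA, 13 in BRAF, 9 in EGFR, 4 in NRAS and 0 in HRAS, ARAF and ERBB2. Members with a low TA minus RA thus include both the GC-poor, long 3′ UTR and the GC-rich, short 3′ UTR mRNAs.

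The exon length that the RPKM values imply was 2946 bases for BRAF, 3709 for PIK3CA and 6571 for EGFR, shorter than the 6459, 9259 and 9905 bases of the GENCODE mRNAs, so part of these mRNAs was not counted. It was 4454 bases for NRAS, 1234 for HRAS, 3129 for ARAF and 5497 for ERBB2. KCNMB3 overlaps 36.8% of the PIK3CA mRNA on the opposite strand, 3403 bases, none of them coding. The counted length of 3709 bases leaves little room beyond the 3207 coding bases of PIK3CA. If the coding part was counted, most of this overlap was not. EGFR-AS1 overlaps 186 coding bases of EGFR, and MIEN1 163 non-coding bases of ERBB2, both on the opposite strand. The library kit named by the study does not mark strand. Where such overlaps were counted, reads of the partners cannot be told apart from those of the genes.

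The TR ranges of the RAS genes were apart, as were those of all neighbours in the TR order except EGFR and ERBB2. Their upstream sequences are shown as a description, and no link to TR was tested. They are the 100 bases before the first start site, on the gene's strand, from RefSeq on GRCh38.p14, at chr1:114716772-114716871 (NRAS) and chr11:535577-535676 (HRAS), both minus strand. Capitals mark the GC box GGGCGG, searched on both strands.
NRAS: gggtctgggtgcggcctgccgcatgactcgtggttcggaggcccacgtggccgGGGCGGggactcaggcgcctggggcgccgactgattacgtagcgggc
HRAS: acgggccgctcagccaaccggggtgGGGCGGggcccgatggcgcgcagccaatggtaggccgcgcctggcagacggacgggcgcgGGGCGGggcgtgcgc
There is 1 match in the NRAS stretch and 2 in the HRAS stretch. Over the whole window of 250 bases before to 50 after the start site, HRAS had 5 matches, NRAS 3, EGFR 3 at its first start site, PIK3CA 1 and the other members 0, where 45% of 35116 promoters hold at least 1. The letters TATAAA were in 0 of the 7 first windows, against 11.5% of promoters, and the letters CCAAT in 5 of 7, against 34.6%, both searched on either strand. A match here is a description of the letters and not of a bound factor.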

How the data were processed

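GRO-seq, RNA-seq and polysome libraries of HCT116 cells were sequenced at 4 samples a lane after TruSeq library preparation. Per the labels and the study's methods, the authors aligned reads with TopHat to hg19 after CASAVA, counted reads over exons with HTSeq, and deposited RPKM per gene symbol; tool versions are not given in the sources used here. Whole reads and library sizes were recovered from the RPKM steps (100% of values whole within 0.001 reads), which gives the depth, and intervals and spreads are those between libraries. The study calls the libraries of a parameter biological replicates, the labels do not name separate cultures, and p-values measure the spread between these libraries.

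The 7 libraries were grouped by their titles. The log2(RPKM + 0.1) values of the 14305 genes averaging 1 RPKM or more in any of the assays were fitted in limma 3.58.1 (R 4.3.3), letting the prior variance follow the mean level and sharing 1 spread over all assays, and p-values were adjusted by Benjamini-Hochberg over all of them with a threshold of 0.05. Fold changes are on that scale and understate changes of low genes. Of the 20072 symbols 16 had no values. On simulated data for RA against TR, 99.5% of 198 genes changed by 2 log2 units were recovered and 41 of 13310 unchanged genes were called. The simulation changed only well-covered genes, gave all libraries the same spread and shifted no other genes. These rates therefore do not carry over to the members, whose differences in RA against TR were smaller. Ratios within libraries were tested by exact permutation. Alternatives were the pseudocount (0.01 and 1), the filter, centring, a replicate block and leaving out each library. Named were the members, the gene of each pathway role with the highest mean RA, ERBB3, PIK3CB, and the 2 nearest genes of each member; 1 further gene of this rule and the start codon contexts are not reported here. The members, lists and rules were chosen with earlier results of these data known. Gene models and mRNAs are from GENCODE 44 lifted to hg19, copies were searched with blastn 2.17.0 (at least 50 aligned bases), and promoters are from RefSeq.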

Additional observations from a re-analysis of the deposited data

How the results depend on the processing

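Over 13 alternatives for each of the 7 genes, the direction and the side of the threshold held in 75 of 91 cases for RA against TR, 79 of 91 for TA against RA and 72 of 91 for TA against TR. NRAS and ARAF passed for TA against RA, and ARAF for RA against TR, under all 13. With the libraries centred on their medians, members called for RA against TR were 3 higher and 1 lower, and for TA against TR 1 higher and 2 lower. Pathway genes were then 26 higher and 10 lower in RA than in TR, and 3 higher and 9 lower in TA than in RA. Over all genes 5066 were then higher for RA against TR, 2713 higher and 1404 lower for TA against RA, and 5436 higher and 5044 lower for TA against TR. Signs turned under centring for ERBB2 in RA minus TR (0.13), for EGFR (0.30) and ERBB2 (0.27) in TA minus RA, and in TA minus TR for NRAS (0.42), HRAS (0.54), PIK3CA (0.16), EGFR (1.09) and ERBB2 (0.39). With no filter, and with 1 RPKM required in each assay, 1 member was higher in RA than in TR, and the stricter filter, which tests fewer genes, called 3656 genes lower for RA against TR and 4935 lower for TA against TR.

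The study divided log-phase cells between the assays, but no source used here ties a replicate number to 1 culture or day, and same-numbered libraries did not all deviate together (correlation 0.15 between TR and RA, −0.56 between RA and TA and 0.02 between TR and TA over 10823 genes). With the replicate block, 1 member was higher in RA than in TR, and 2 were lower in TA than in RA. Pathway genes were 7 higher in RA than in TR and 10 lower in TA than in RA, and 109 genes were higher and 1387 lower for TA against RA over all. Calls lost under the block were RA against TR for HRAS (adjusted p = 0.114) and ERBB2 (0.0644), TA against RA for HRAS (0.0524), BRAF (0.0858) and PIK3CA (0.0613), and TA against TR for HRAS (0.111). EGFR turned to −0.19 for RA minus TR and to 0.11 for TA minus RA. RA replicate 3 has no partner number in TR or TA and adds nothing to the blocked differences.

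Leaving out each library in turn gave 0 to 2 members higher in RA than in TR, 3 to 5 lower in TA than in RA (3 without TA replicate 1) and 3 to 6 lower in TA than in TR (3 without TR replicate 2 or TA replicate 1). Pathway genes ranged from 7 to 13 higher in RA than in TR and from 18 to 31 lower in TA than in RA, and all genes from 200 to 1030 higher and 1806 to 4225 lower for TA against RA. EGFR ranged from −0.19 to 0.44 for RA minus TR, from −0.52 to 0.11 for TA minus RA and from −0.29 to 0.12 for TA minus TR, and turned sign without RA replicate 3 (−0.19 for RA minus TR, 0.11 for TA minus RA), without TR replicate 2 (−0.09 for RA minus TR) and without TR replicate 1 (0.12 for TA minus TR). The change of the NRAS to HRAS ratio from TR to RA ranged from −0.18 to 0.37, and that of EGFR to ERBB2 from RA to TA from −0.33 to 0.32, with −0.04 without TA replicate 2. The cause of these shifts was not tested. Low TR depth, with 66 reads for PIK3CA in 1 library, and 2 libraries in TR and TA limit the precision.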
